A study of Arabidopsis thaliana with 6 samples.

Results

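Growing pollen tubes of Arabidopsis thaliana were compared with hydrated pollen, on 2 ATH1 arrays of tubes and 2 of hydrated pollen out of the 6 arrays of the series. The stages were taken from the array titles, and all 11412 probe sets that passed a filter on low signal entered, out of 22746 that are not controls. Both stages came from 50-day-old plants of ecotype Columbia, with no mutation or added agent named. Pollen was released by shaking flowers in a medium with 15% sucrose. The hydrated stage is this pollen after 45 min at 25 °C, and the tube stage after 4 h. A 50 µm mesh then held back the tubes, which were about 150 µm long, and no such step is given for hydrated pollen. The remaining 2 arrays hold mature pollen collected dry, which served here for the estimate of the spread and as a reference level. A difference between tubes and hydrated pollen thus covers the longer time in medium, germination and growth, and the removal of grains without a tube, which cannot be told apart. In bulk samples such as these, fewer cells of a type and less RNA per cell cannot be told apart either.

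The pollen grain of a flowering plant is a vegetative cell that carries the sperm cells inside it. On hydration the vegetative cell leaves dormancy, and it then extends a tube by tip growth, in which secretory vesicles deliver pectin and membrane to the apex. Receptor kinases at the surface, ROP GTPases, a calcium gradient at the tip and actin filaments along the tube are known to steer and sustain this growth. The dry grain already stores many of the transcripts that germination uses.

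Known pollen transcripts marked all 4 arrays. The polygalacturonase AT3G07820, a pectin-degrading enzyme of pollen, read 34686 and 31937 units of signal in hydrated pollen and 35048.8 and 23534.2 in tubes, among the highest values on the arrays. Of the markers of other tissues, 6 of 26 listed had a named probe set, and these covered photosynthesis, floral organs and tapetum. Their signals ranged up to 32.5 in hydrated pollen and up to 50.8 in tubes (SPT, a floral organ regulator, on tube array 1). The 60th percentile of each array, which lay between 19.7 and 31.5 on the 4 arrays, was taken here as the limit of background. The tapetum markers A9, AMS and SHT all failed the filter. The other 3, SPT, RCA and SWEET9, passed it, and none of them was called. SPT lay above the limit on both tube arrays (50.8 and 25.6) and on neither hydrated array. Scaled array medians lay between 14 and 22.8 on the 4 arrays. All 9 hybridisation-control probe sets were brighter on array 1 than on array 2, by a median of 1.55 times in hydrated pollen and 1.95 times in tubes, and the probe sets of 25S ribosomal RNA read 100.4 and 1827.8 in hydrated pollen and 37.6 and 1241.9 in tubes. The arrays of each number therefore differed in the same way in both stages. For 1 pair of ubiquitin probe sets, the 3′ to 5′ signal ratio, a sign of RNA quality, was 2.98 and 2.76 in hydrated pollen and 3.04 and 2.46 in tubes. It was higher on the mature arrays, at 4.90 and 4.34, and the part of this in the estimate of the spread was not tested. A second ubiquitin pair had closer signals, 3′ and then 5′. These were 7899.5 and 7605.7 on hydrated array 1 and 7457.8 and 7457.7 on hydrated array 2. They were 10669.2 and 8667.5 on tube array 1 and 9007.1 and 9296.7 on tube array 2. On the mature arrays they were 6985.7 and 3210.4 for array 1 and 7330.8 and 6650.6 for array 2.

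Tubes differed from hydrated pollen in 522 probe sets, 4.57% of those tested, of which 290 were higher in tubes (2.54%) and 232 lower (2.03%). These calls come from limma's moderated test with Benjamini-Hochberg adjustment, at an adjusted p under 0.05. The SE and p of a gene draw on the spread within all 3 stages, so mature arrays that disagree widen the SE. On the hydrated and tube arrays alone, 686 probe sets were called. Rises were larger than falls. Where both stages lay above background on at least 1 array, the median fold was 6.67 among 229 rises and 3.84 among 222 falls, 94 rises but 11 falls exceeded 8-fold, and 45 rises but 1 fall exceeded 16-fold. The other 61 rises started from background in hydrated pollen, and 10 falls ended at background in tubes. Among the rises the median signal was 66.7 in hydrated pollen and 576 in tubes, and among the falls it was 1026 and 263. Both tube arrays lay beyond both hydrated arrays in all 522 calls, against 4917 of the 11412 tested (43.1%). The counts moved with single arrays: 109 probe sets were called without tube array 1, 177 without tube array 2, 216 without hydrated array 1 and 235 without hydrated array 2, when the lone remaining array of a stage is assumed to vary like the other stages. With the replicate number as a block, 1646 probe sets were called (14.4%), 775 up (6.79%) and 871 down (7.63%), and all 522 were among them. Without a trend of variance with signal intensity in the fit, 0 of the 11412 passed the adjusted threshold.

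**Figure D1:**
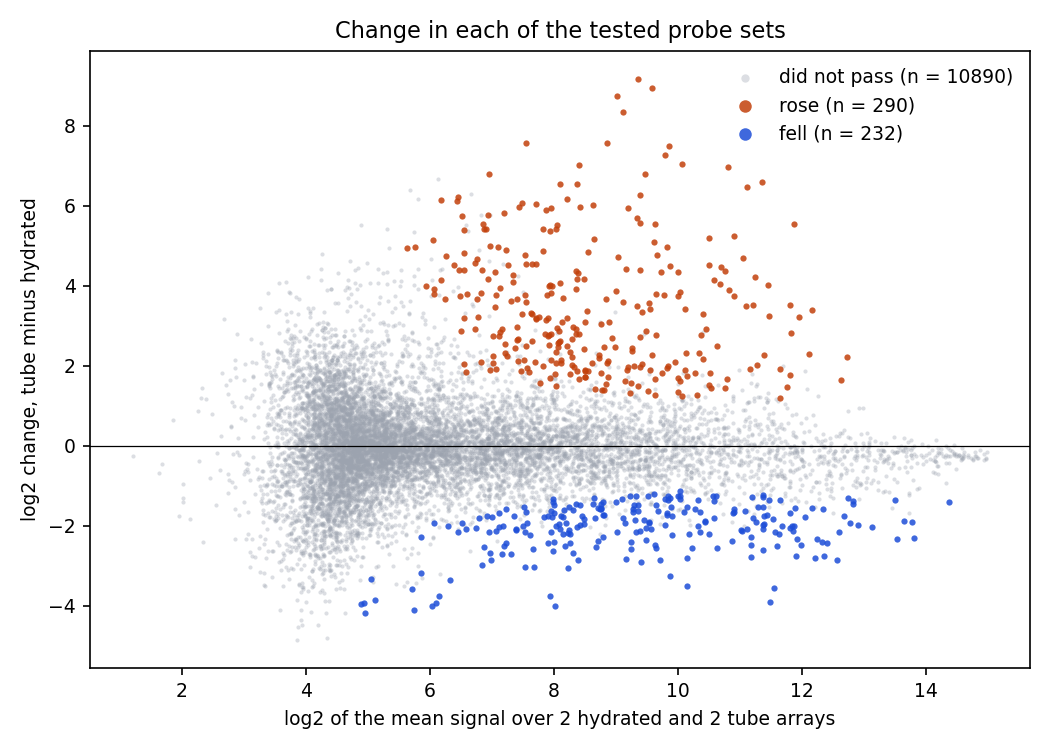
Log2 change from hydrated pollen to tubes (vertical axis) against the log2 mean signal over the 4 arrays (horizontal axis), 1 point per tested probe set. The 290 rises reach further from zero than the 232 falls, and the brightest probe sets lie close to zero.

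Calls were a minority among bright transcripts, though a larger share than the 4.57% among all tested probe sets. Among the 2714 tested probe sets with a mean signal over 200 on the 4 arrays, 394 changed (14.5%), 208 up (7.66%) and 186 down (6.85%), and the median change was -0.11 on the log2 scale against -0.06 over all tested probe sets. For 563 of them the 95% interval of the change lay within 1 log2 unit of zero. The change within replicate number 1 and the change within number 2, which share no array, had a Pearson coefficient of 0.929 across these 2714 probe sets and the same sign in 83.3% of them. Probe sets are not independent replicates in that coefficient. Of the 100 brightest probe sets in hydrated pollen, 82 were also among the 100 brightest in tubes.

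**Figure D2:**
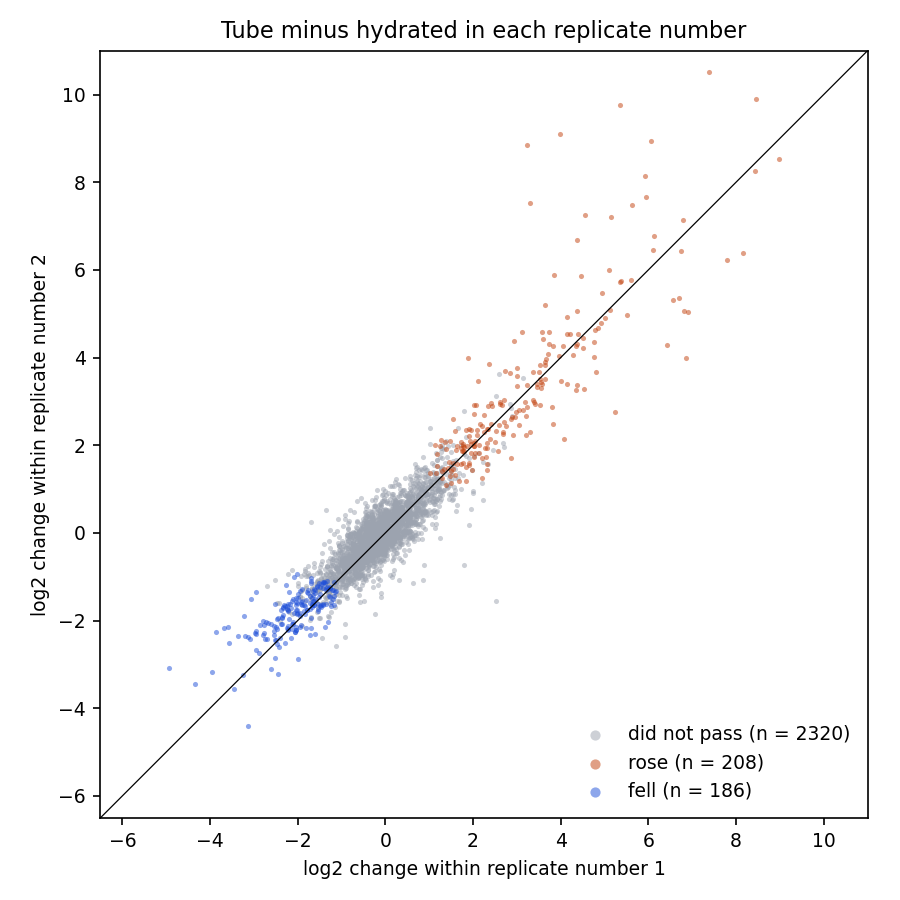
Log2 change from hydrated pollen to tubes within replicate number 1 (horizontal axis) and within replicate number 2 (vertical axis), for the 2714 probe sets with a mean signal over 200. The line marks equal change, and the 208 rises and 186 falls lie in the upper right and lower left.

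The steepest rises measured in both stages took genes to a strong signal, from starts that ranged from near background to well above it. AT3G09830, a receptor-like cytoplasmic kinase, read 23.3 and 26.1 in hydrated pollen, above the limit of background on 1 of the 2 arrays, and 1133.3 and 1421.3 in tubes. Its log2 change was 5.69 ± 0.41 (SE; adjusted p = 0.000142), and the arrays of number 2 alone gave 5.77. AT5G35380, another protein kinase, went from 80.8 and 120.7 to 3700.5 and 3770.8 (5.24 ± 0.61, adjusted p = 0.00127). In mature pollen it had read 4.4 and 19.7, below the limit of background on both arrays. AT4G26830, a glycosyl hydrolase of the family of β-1,3-glucanases, which cut callose-type glucan, rose from 85.1 and 68.0 to 2611.1 and 3014.9 (5.2 ± 0.36, adjusted p = 0.000141). The tube arrays of these 3 genes lay well clear of all hydrated and mature arrays.

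AT2G21430, a papain-type cysteine protease, read 142.9 and 181.8 in hydrated pollen and 3264.1 and 3369.9 in tubes (4.36 ± 0.49, adjusted p = 0.00102). The subtilase AT4G21323 rose from 40.0 and 35.5 to 830.3 and 1182.4 (4.72 ± 0.97, adjusted p = 0.0206). PUB23 (AT2G35930), a U-box ubiquitin ligase known for early responses to stress and microbial patterns, rose from 119.1 and 166.0 to 2503.7 and 3879.6 (4.47 ± 0.73, adjusted p = 0.00642). Its mature arrays, which enter the SE, read 26.1 and 3.8, further apart in proportion than its hydrated or tube arrays. The RING protein AT1G30860 rose by 5.41 ± 1.25 (adjusted p = 0.0351) from 52.1 and 2.6 to 513.3 and 478.8, and the hydrated arrays disagreed on its start, so that the change was 3.30 within number 1 and 7.52 within number 2. TET8 (AT2G23810), a tetraspanin of the plasma membrane and of secreted vesicles, rose from 70.7 and 42.7 to 2047.1 and 1087.9 (4.76 ± 0.46, adjusted p = 0.000394).

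The rest of the 15 steepest rises were AT3G15860, AT5G09370, AT3G13662, AT2G07020 (a kinase with a universal-stress-type domain), AT1G32920, AT3G26870 and AT5G20310. Their changes ran from 4.38 to 5.11. Of the 15, 7 passed the test with each of the 6 arrays left out in turn: AT3G09830, AT5G35380, AT4G26830, TET8, AT3G26870, AT5G20310 and AT2G21430. Without tube array 1 those 7 were called, without tube array 2 8 were, without hydrated array 1 11 and without hydrated array 2 10, and the highest adjusted p, 0.407, belonged to AT5G09370 without tube array 1. All 15 kept their direction in each omission. Among the single-gene probe sets that passed, the 5 whose changes differed most between numbers were AT1G30860, AT3G13662 (6.13 and 3.0 within numbers 1 and 2), STP10 (fitted differences of 7.39 and 10.52 from a signal below background), AT5G49180 in the same way (2.58 and 6.76) and the CAP-family protein AT5G02730 (2.34 and 5.87), all below the limit of background on at least 1 hydrated array.

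Other genes rose from background, where a fold can only be bounded. The highest bound among genes with a name belonged to AT5G09280, a pectate lyase, which read 5.8 and 22.0 in hydrated pollen and 1670.1 and 1832.0 in tubes, at least 68.8-fold higher (adjusted p = 0.00658). STP10 (AT3G19940), a plasma membrane hexose carrier that imports glucose into pollen tubes, read 6.8 and 1.3 in hydrated pollen and 1143.9 and 1907.6 in tubes, at least 58.1-fold higher (adjusted p = 0.00102). Neither gene was above background in mature pollen on more than 1 array, where AT5G09280 read 34.6 and 1.5 and STP10 5.1 and 1.7. For AT5G11820 the bound was 55.5-fold (adjusted p = 0.000379), and for AT5G15560 it was 42.8-fold (adjusted p = 0.000224). AT5G08480, a VQ-motif protein, rose at least 39.7-fold (adjusted p = 0.00132), from 2.5 and 2.2 to 1257.7 and 808.2. AT1G63530, the subtilase AT1G66220 and AT3G02125 had bounds between 19.0 and 21.1. Without tube array 1 or without tube array 2, AT5G11820 and AT5G15560 were the 2 of these 8 that passed, and the others had adjusted p between 0.0681 and 0.193. AT5G09280 also missed it without hydrated array 1 (adjusted p = 0.0554). Over all 61 rises from background, the median bound was 10.3-fold and the tube mean exceeded 1000 in 9.

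The rises that reached the highest signal in tubes were described separately. AT1G69840, a hypersensitive-induced-reaction protein of the membrane-associated SPFH family, reached 11093.5 and 11201.9 in tubes from 1882.2 and 3051.9 in hydrated pollen (2.22 ± 0.35, adjusted p = 0.00502). AT3G19690, a CAP-family protein related to the secreted defence protein PR-1, read 880.2 and 709.3 in hydrated pollen and 9656.2 and 7143.5 in tubes (3.39 ± 0.33, adjusted p = 0.000439). AT1G50740, a small membrane protein of the TMEM14 type, rose from 893.4 and 299.6 to 9289.9 and 3791.2 (3.52 ± 0.53, adjusted p = 0.00429). In mature pollen these 3 genes were lower still, at 815.1 and 1316.4, 88.7 and 58.9, and 107.1 and 117.5.

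The amino acid transporter AT1G67640 rose from 633.1 and 1224.7 to 4956.3 and 7679.3 (2.81 ± 0.38, adjusted p = 0.00257). AT5G46200 read much the same in the earlier stages, with 381.1 and 264.5 in mature pollen and 391.9 and 267.1 in hydrated pollen, and then read 5247.7 and 5327.6 in tubes (4.03 ± 0.33, adjusted p = 0.000224). AT4G28290, AT3G27410 and AT3G26880 completed the 8 brightest rises, with changes of 3.24, 1.65 and 1.93. AT3G19690, AT5G46200 and AT1G67640 passed with every array left out in turn, and 3 of the 8 passed without tube array 1, 5 without tube array 2, 5 without hydrated array 1 and 6 without hydrated array 2, with adjusted p up to 0.286 (AT3G26880 without tube array 1). None of the 290 rises was among the 100 brightest probe sets of either stage.

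**Figure D3:**
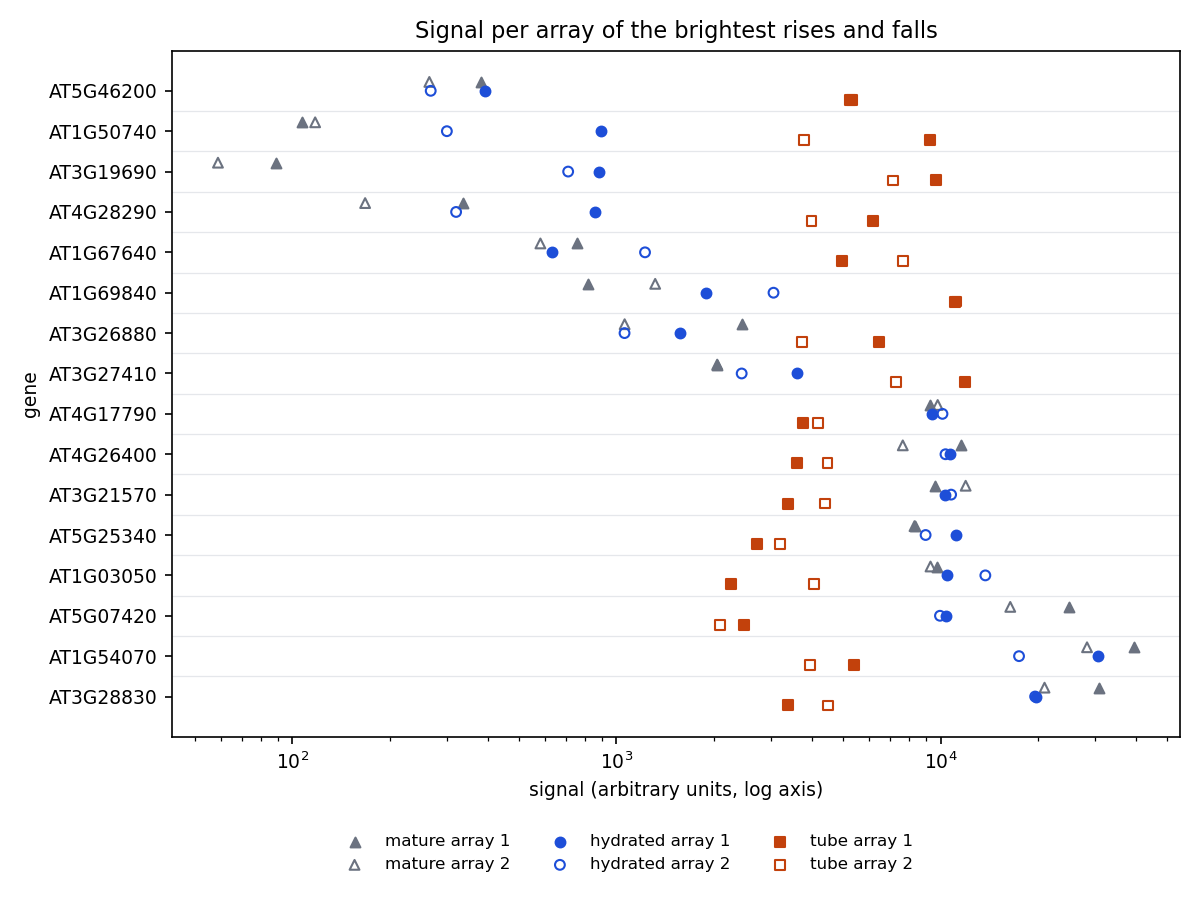
Signal on a log axis of the 8 brightest rises (upper rows) and 8 brightest falls (lower rows) in each of the 6 arrays, with filled symbols for array 1 and open symbols for array 2. The tube arrays (squares) lie right of both hydrated arrays (circles) in the rises and left of them in the falls.

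Of the 232 probe sets that fell, 118 had a mean above 1000 in hydrated pollen, and the share over all tested was not counted. A mean over 200 on the 4 arrays held for 186 of the falls, against 2714 of the 11412 tested. The SE was smaller at such signals, with a median of 0.36 against 0.70 over all tested, so changes there were easier to call. The largest fall measured in both stages was that of AT2G19010, a GDSL-type lipase, a class of secreted lipid hydrolases, from 538.7 and 426.4 to 17.5 and 50.0 (-4.02 ± 0.48, adjusted p = 0.00132). In mature pollen it had read 1220.0 and 1586.4. AT4G00350, a MATE-type efflux carrier, fell from 4375.1 and 6322.9 to 215.7 and 576.4 (-3.90 ± 0.43, adjusted p = 0.000963). AT5G28470, the transporter NPF2.8, which is known to export flavonol glycosides from the tapetum to the pollen surface, fell from 248.2 and 674.5 to 28.5 and 31.9 (-3.76 ± 0.51, adjusted p = 0.00257). The tube values of AT2G19010 and AT5G28470 were above the limit of background on 1 of the 2 arrays.

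AT3G06150, AT1G44000 and the F-box protein AT3G07870 fell by 3.57, 3.25 and 3.07 on the log2 scale. AT1G73630, a calmodulin-like calcium sensor, went from 1348.5 and 1022.2 to 106.0 and 228.9 (-2.91 ± 0.39, adjusted p = 0.00232) after 3733.3 and 4505.3 in mature pollen. AT2G18180, a Sec14-like phosphatidylinositol transfer protein, went from 9147.8 and 9053.5 to 1068.7 and 1700.1 (-2.76 ± 0.32, adjusted p = 0.00113). AT5G27980, a seed maturation protein, fell from 9565.1 and 3988.3 to 1084.0 and 766.9 (-2.76 ± 0.43, adjusted p = 0.00502).

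The remaining members of the 15 largest falls were AT3G10460, AT1G22730 (an MA3-domain protein), AT1G15470 (a WD40 protein), EXPA24, AT1G29120 and the glycosyltransferase AT2G28080, with changes between -2.86 and -2.68. Of the 15, 10 passed with every array left out in turn, 11 passed without tube array 1 and also 11 without tube array 2, 12 when hydrated array 1 was left out and 13 when hydrated array 2 was. The highest adjusted p was 0.127, for AT1G22730 without tube array 1. All 232 probe sets that fell lay above background on both mature arrays, and 210 still lay above it on both tube arrays. The matching shares over all tested probe sets were not counted.

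Among the most abundant transcripts of hydrated pollen, AT1G54070, a dormancy- and auxin-associated protein, read 30516 and 17468.2 and went to 5423.4 and 3952.9 in tubes (-2.32 ± 0.37, adjusted p = 0.00558). AT3G28830 went from 19684.7 and 19583.6 to 3384.0 and 4496.3 (-2.33 ± 0.33, adjusted p = 0.00299). AT1G03050, an ANTH-domain adaptor of clathrin-mediated endocytosis, went from 10498.7 and 13749.0 to 2253.9 and 4077.8 (-1.99 ± 0.35, adjusted p = 0.00896). The other 5 of the 8 brightest falls were AT5G07420 (PME49, below), AT5G25340, AT4G26400 (a RING protein), AT3G21570 and AT4G17790, with changes from -2.16 to -1.30. Without tube array 1, 1 of these 8 falls was called, without tube array 2 it was 2, without hydrated array 1 it was 3 and without hydrated array 2 it was 4, with adjusted p up to 0.265, while all 8 changes stayed negative. Of the 100 brightest probe sets of hydrated pollen, 6 fell.

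A few genes fell to background in tubes. AT5G43530, a helicase-like protein of the SNF2 family, read 95.8 and 145.6 in hydrated pollen and 2.8 and 19.2 in tubes, at least 4.74-fold lower (adjusted p = 0.0206). The carrier-type protein AT2G16980 was at least 4.6-fold lower (adjusted p = 0.0382), AT5G66290 at least 4.14-fold (adjusted p = 0.0101). AT5G09510, which encodes an S15 ribosomal subunit protein, had a bound of 4.05-fold (adjusted p = 0.00257). AGL21 (AT4G37940), a MADS-box factor known from roots, read 117.3 and 74.8 in hydrated pollen and 4.1 and 14.8 in tubes, at least 3.76-fold lower (adjusted p = 0.0267). AT4G30620, AT2G37240 and AT3G62480 had bounds of 2.30 to 2.40. AT5G09510 passed under every omission, and of the 8 genes 1 passed without hydrated array 1, 1 without hydrated array 2, 4 without tube array 1 and 5 without tube array 2, with adjusted p up to 0.273. AT4G30620 also lost its call without mature array 1.

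The brightest transcripts with a narrow interval around no change included secreted and wall-related proteins. AT5G47000, a secreted peroxidase, read 26993.4 and 25585.7 in hydrated pollen and 26458.2 and 20925.6 in tubes, a change of -0.16 on the log2 scale. AT1G29140, of the Ole e 1 family of pollen allergens, read 30218.1 and 26494.0 and then 26704.0 and 21931.1. The pectin methylesterase inhibitors AT5G50030 and AT4G02250 changed by -0.05 and -0.27, and the glycosyl hydrolase AT3G62710 by -0.21. In all 10 genes chosen this way the 95% interval of the change lay within 1 log2 unit of zero, which limits the change but does not show that there was none.

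The gene lists of tip growth were described next, by the role of their members. Of 236 listed genes, 71 were tested, 8 failed the filter and 157 had no named probe set here, so the counts do not speak for the whole of a pathway. Over all lists 13 of the 71 passed, 7 up and 6 down, against 4.57% of all tested probe sets and 14.5% of the bright ones. The lists and members were chosen with earlier results of these data known, so such counts, here and below, test no list or family. A gene at background in hydrated and mature pollen was tested only where its tube arrays were high, which can raise the share of rises. None of the 13 passed under every omission of 1 array.

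Receptor kinases and their partners at the tube tip gave 1 call. Of 17 tested members of the tip growth list, PRK8 (AT1G72460), a pollen receptor-like kinase, fell, none rose, and the median change was 0.00. Falls made up 2.03% of all tested probe sets and 6.85% of the bright ones. PRK8 read 476.8 and 660.2 in hydrated pollen and 155.8 and 134.2 in tubes (-1.96 ± 0.40, adjusted p = 0.020), and its adjusted p lay between 0.0705 and 0.184 when a hydrated or tube array was left out. ANX1 and ANX2, the receptor kinases that keep the growing tube intact, went from 3029.1 and 3517.5 to 5685.7 and 4935.5 and from 7631.4 and 8838.4 to 7308.1 and 8213.2. ANX1 had a change of 0.70 ± 0.28 (adjusted p = 0.257, and 0.0110 with the replicate block), and ANX2 one of -0.08 with a 95% interval from -0.72 to 0.56.

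BUPS1, which acts with the ANX receptors, changed by -0.13 (95% interval -0.84 to 0.58), and BUPS2 by -0.76 (adjusted p = 0.329, and 0.00468 with the block). MARIS, a cytoplasmic kinase downstream of ANX1, read 1544.5 and 1351.9 in hydrated pollen and 1916.4 and 2024.9 in tubes (0.45, adjusted p = 0.556). The leucine-rich extensins LRX8 to LRX11, wall proteins that bind RALF peptides, differed more between array numbers than between stages. LRX8 read 18860.7 on hydrated array 1 and 8611.4 on hydrated array 2, then 21518.1 on tube array 1 and 6611.5 on tube array 2. Of the regulators of ROP GTPases, RHOGDI1 changed by -0.10 (95% interval -0.74 to 0.54) and RHOGDI2A had a change of 0.83 (adjusted p = 0.285, and 0.00456 with the block). PIP5K11, which makes the phosphoinositide PIP2 at the tip, changed by -0.37 (adjusted p = 0.689).

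**Figure D4:**
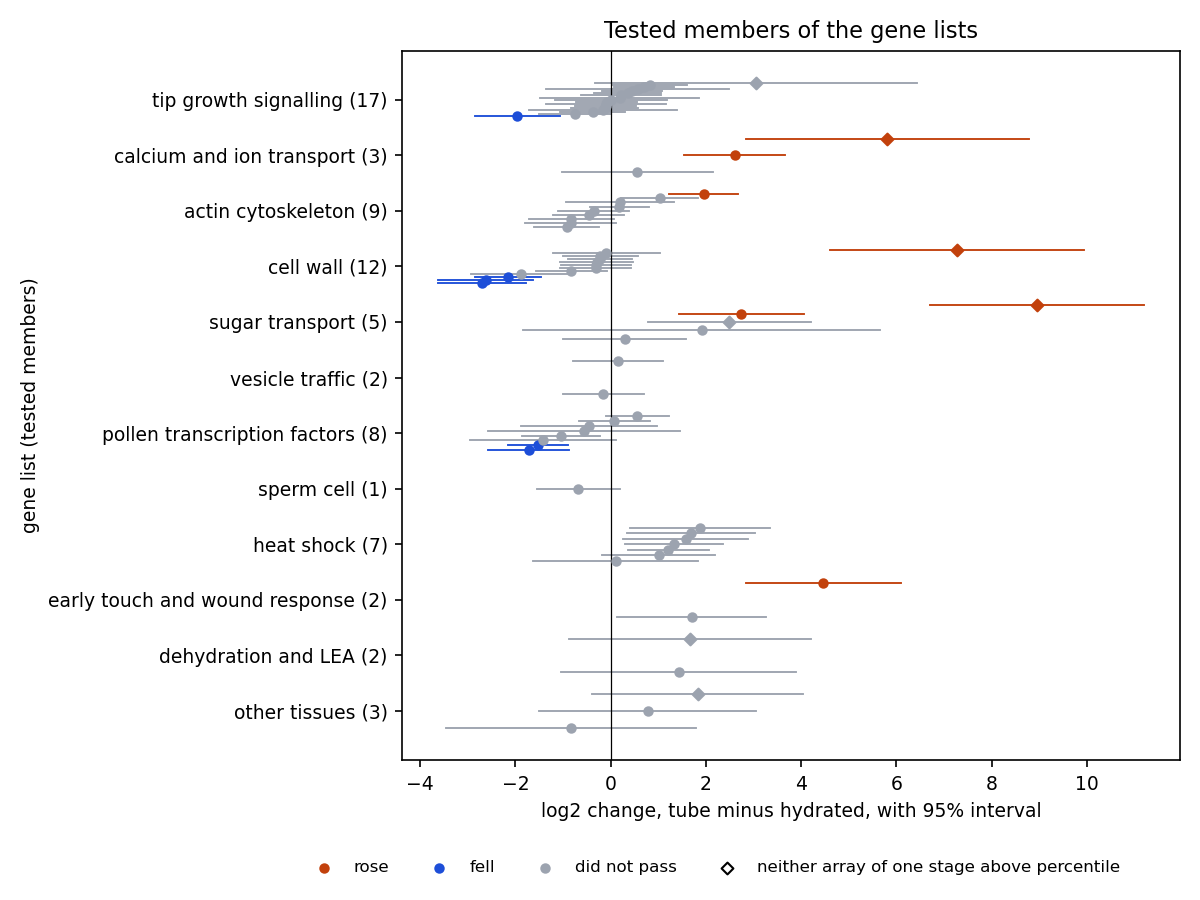
Log2 change from hydrated pollen to tubes with its 95% interval for the 71 tested members of the 12 gene lists, 1 line per gene, with the number of tested members in brackets. Diamonds mark members above background on neither array of a stage, whose fold is a bound. The sugar carrier STP10 and the pectate lyase AT5G09280 lie furthest right, and the cell wall genes EXPA24 and PME28 furthest left.

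Of 3 tested ion carriers and channels, out of 29 listed genes of calcium and ion transport, 2 rose. The share of rises was 2.54% over all tested probe sets and 7.66% over the bright ones. CHX19 (AT3G17630) and CHX21 (AT2G31910) belong to the cation/proton exchangers, many of which are specific to pollen. CHX19 went from 70.5 and 80.5 to 356.0 and 595.7 (2.61 ± 0.48, adjusted p = 0.0111), and CHX21 from 11.7 and 2.2 to 285.2 and 285.1, at least 11.2-fold higher (adjusted p = 0.0349). CHX21 was above the limit of background on its tube arrays alone, and it entered the tested set only through them. Left-out hydrated or tube arrays gave adjusted p of 0.0711 to 0.145 for CHX19 and 0.0513 to 0.358 for CHX21. A further member of the family, CHX15 (AT2G13620), had a change of 1.04 (adjusted p = 0.139, and 0.000605 with the block). The other tested channel gene, GLR1.2, stayed near background, with 27.7 and 21.9 in hydrated pollen and 46.4 and 28.3 in tubes.

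Sugar carriers gave 2 rises among 5 tested, against 2.54% of all tested probe sets and 7.66% of the bright ones. STP10 was above the limit of background on its tube arrays alone, and it entered the tested set only through them. Besides STP10, described above, SWEET8 (AT5G40260), a plasma membrane glucose facilitator needed for pollen development, went from 30.8 and 41.7 to 270.7 and 213.3 (2.75 ± 0.59, adjusted p = 0.0254), with adjusted p of 0.103 to 0.231 without a hydrated or tube array. Within number 1 the change was 3.14 and within number 2 it was 2.35. TMT3, a vacuolar monosaccharide carrier, went from 7.1 and 6.6 to 56.5 and 26.3 (adjusted p = 0.114, and 0.0430 with the block). The hexose carrier STP8 read 38.8 or less on all 4 arrays, and VEX1, a SWEET-type carrier of the vegetative cell, had a change of 0.29 (95% interval -1.0 to 1.59). SWEET8 was the only riser among 12 tested genes that carry a SWEET symbol or synonym. STP10 lost its call without tube array 1 (adjusted p = 0.0761) and without tube array 2 (adjusted p = 0.122).

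Of 9 tested actin genes, 1 rose, against 2.54% of all tested probe sets and 7.66% of the bright ones. FIM4 (AT5G55400), a fimbrin that bundles actin filaments, went from 320.5 and 422.6 to 1609.4 and 1260.3 (1.95 ± 0.33, adjusted p = 0.00730), with adjusted p of 0.0390 to 0.117 without a hydrated or tube array. The pollen actins ACT11 and ACT12 had changes of 0.18 and 0.19, with adjusted p of 0.868 and 0.936. PLIM2A, a LIM-domain bundling protein and the most abundant of these transcripts in hydrated pollen, read 28430 and 25214.9 there and 14833.6 and 13476.1 in tubes (-0.92 ± 0.31, adjusted p = 0.152, and 0.00240 with the block). The myosin XIE, which moves vesicles and organelles in pollen tubes, read 153.2 and 152.4 and then 261.5 and 370.9 (1.03, adjusted p = 0.190, and 0.0133 with the block). Over the 9 genes, the median change was -0.36.

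Wall genes divided between 1 rise and 3 falls among 12 tested, with a median of -0.31. Over all tested probe sets 2.54% rose and 2.03% fell, and over the bright ones 7.66% and 6.85%. The gene that rose would not have entered the tested set without its tube arrays. The rise was the pectate lyase AT5G09280 given above, whose adjusted p was 0.103 without tube array 1 and 0.10 without tube array 2. PME28 (AT5G27870), an enzyme that removes methyl groups from pectin, fell from 4201.5 and 4863.5 to 536.9 and 1006.4 (-2.62 ± 0.45, adjusted p = 0.00800). PME49, of the same family, fell from 10361.4 and 9960.0 to 2482.6 and 2089.0 (-2.16 ± 0.31, adjusted p = 0.00377). EXPA24 (AT5G39310), an expansin, the class that loosens cell walls, fell from 305.2 and 194.0 to 48.6 and 28.5 (-2.71 ± 0.42, adjusted p = 0.00448). Without a hydrated or tube array, the adjusted p lay between 0.0385 and 0.122 for PME28, between 0.0373 and 0.0589 for PME49 and between 0.0224 and 0.0576 for EXPA24.

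The abundant pectin-degrading enzymes of the grain did not pass the test. The pectate lyase AT3G01270 read 31529.5 and 28333.7 in hydrated pollen and 26591.2 and 21981.9 in tubes (-0.31, adjusted p = 0.789), and the polygalacturonase AT5G48140 27844.7 and 24827.0 and then 26077.3 and 17721 (-0.29, adjusted p = 0.811). The polygalacturonase AT3G07840 was much dimmer, with 94.9 and 148.7 and then 31.4 and 33.3, and missed the threshold (-1.88, adjusted p = 0.0539, and 0.00222 with the block), though not without mature array 1 (adjusted p = 0.0483). AT5G15110, a pectate lyase, had a change of -0.82 (adjusted p = 0.265, and 0.00651 with the block). AT5G49180, a pectin methylesterase, was outside the list and was named for its discordance between numbers. It went from 26.2 and 2.3 to 156.9 and 249.5, at least 7.78-fold higher (adjusted p = 0.0217), with 2.58 within number 1 and 6.76 within number 2 and adjusted p of 0.0607, 0.147 and 0.199 without hydrated array 2, tube array 1 and tube array 2.

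Pollen transcription factors gave 2 falls and no rise among 8 tested, with a median of -0.80. AGL18 (AT3G57390), a MADS-box factor that also delays flowering, went from 4147.8 and 3706.9 to 1542.3 and 1203.3 (-1.53 ± 0.29, adjusted p = 0.0128). AGL29 (AT2G34440), a pollen MADS-box factor, went from 829.4 and 544.1 to 173.2 and 239.8 (-1.72 ± 0.38, adjusted p = 0.0303). Both lost their call when any hydrated or tube array was left out, with adjusted p between 0.0814 and 0.136 for AGL18 and between 0.0824 and 0.252 for AGL29. AGL66, which acts with AGL104 in pollen maturation, read 1162.8 and 588.5 and then 427.6 and 376.5 (-1.04, adjusted p = 0.184, and 0.00161 with the block), while AGL104 read 685.8 and 661.0 and then 905.5 and 1087 (0.56, adjusted p = 0.448). bZIP18 (-1.42) had adjusted p of 0.382, and 3.11e-05 with the block. Over all 12 tested MADS-box genes, AGL18, AGL29 and AGL21 fell and none rose. The share of falls was 2.03% over all tested probe sets and 6.85% over the bright ones. Among the MADS-box genes not called, AGL16, AGL24, AGL61 and AGL95 read 56.9 or less on all 4 arrays.

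The sperm cell list had 1 tested gene. MGH3 (AT1G19890), a histone H3 variant of sperm, read 2343.1 and 1316.2 in hydrated pollen and 1362.3 and 886.1 in tubes (-0.68 ± 0.40, adjusted p = 0.504, and 0.0123 with the block). The array 1 value was above the array 2 value in each stage, so the stages overlapped while the change was negative within each number, at -0.78 and -0.57.

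None of the 7 tested heat shock genes passed the test on all 6 arrays, and all 7 changes were positive, with a median of 1.33. Over all tested probe sets 47.0% of the changes were positive. HSP17.6C, a small heat shock protein, read 2325.7 and 1016.7 in hydrated pollen and 4834.7 and 3083.3 in tubes (1.33 ± 0.47, adjusted p = 0.176, and 0.000112 with the block). ROF2, an immunophilin that modulates the heat shock response, read 899.3 and 816.5 and then 3639.5 and 2742.9 (1.88 ± 0.66, adjusted p = 0.177, and 0.00178 with the block). Its adjusted p was 0.00548 without mature array 1 and 0.00495 without mature array 2, and 0.382 to 0.576 without a hydrated or tube array. With the block 5 of the 7 passed upward, against 6.79% of all tested probe sets, the others being the class III small heat shock protein AT1G54050, HSC70-3 and HSP70-2. The share of bright probe sets that passed upward with the block was not counted. HSP22 (1.01) and HSP23.5 (0.11) had adjusted p of 0.448 and 0.982 without the block and of 0.137 and 0.968 with it.

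In the list of early touch and wound responses, 2 genes were tested. PUB23, given above, rose, and its adjusted p lay between 0.0393 and 0.10 without a hydrated or tube array. Rises made up 2.54% of all tested probe sets and 7.66% of the bright ones. PUB23 was 1 of 7 tested U-box ligases, of which no other passed and 5 had negative changes (median -0.19). Its paralogue PUB22 went from 65.5 and 58.6 to 249.2 and 162.7 (1.70 ± 0.71, adjusted p = 0.277). The transcription factors WRKY53 and ZAT10 of the same list were at 20.0 or less on all 4 arrays and failed the filter. Of 6 tested subunits of the exocyst, which tethers vesicles to the plasma membrane, none passed. SEC6, the brightest, changed by -0.15 (95% interval -1.0 to 0.70), SEC15A by 0.16, SEC10 by 0.06, EXO84B by -0.54 and SEC5A by -1.02 (adjusted p = 0.469). SEC15B went from 3.5 and 23.1, below background on both arrays, to 78.4 and 65.6, at least 2.82-fold higher (adjusted p = 0.144, and 0.0361 with the block). The dehydration proteins LEA4-5 and COR47 stayed at 55.3 or below on all 4 arrays.

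Families gathered by gene symbol added further members. Of 7 tested tetraspanins, 3 rose, against 2.54% of all tested probe sets and 7.66% of the bright ones. TET16 (AT1G18510) went from 14.3 and 2.0 to 394.6 and 284.6, at least 13.2-fold higher (adjusted p = 0.00917), and TET7 (AT4G28050) from 140.0 and 96.5 to 388.3 and 415.2 (1.79 ± 0.40, adjusted p = 0.0301), beside TET8. Without its tube arrays, TET16 would not have entered the tested set. The brightest tetraspanin in hydrated pollen was AT2G03840 (TET13), with 2320.2 and 1446.7 and then 5106.2 and 3365.7 (1.18 ± 0.35, adjusted p = 0.103, and 7.63e-05 with the block). TET8 passed under every omission, TET16 lost its call without tube array 1 (adjusted p = 0.174) or 2 (0.124), and TET7 lost it when any of the 4 hydrated and tube arrays was left out (adjusted p of 0.0853 to 0.242).

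Of 11 tested expansins, EXPA16 (AT3G55500) rose from 94.2 and 165.3 to 1109.2 and 1630.9 (3.43 ± 0.66, adjusted p = 0.0148) and EXPA24 fell. For this and the next counts, 2.54% of all tested probe sets rose and 2.03% fell, and 7.66% and 6.85% of the bright ones. EXPA4, the brightest, read 10342.6 and 17438.9 and then 10233.3 and 15617.9 (-0.09, 95% interval -1.20 to 1.03). EXPA16 had adjusted p between 0.0525 and 0.154 without a hydrated or tube array. CSLC12 (AT4G07960), a xyloglucan backbone synthase of the cellulose synthase-like family, fell from 5458.2 and 6070.3 to 1051.5 and 1795.4 (-2.07 ± 0.33, adjusted p = 0.00601), with adjusted p of 0.0979 without tube array 1 and 0.0659 without hydrated array 2. UGT73B5 (AT2G15480), a stress-related glycosyltransferase, rose from 56.4 and 69.5 to 414.6 and 420.6 (2.74 ± 0.39, adjusted p = 0.00347). It was the only one of 16 tested genes with a UGT symbol or synonym to pass (2 did with the block). That count leaves out glycosyltransferases without such a symbol, such as AT2G28080, which fell. UGT73B5 lost its call without tube array 1 or tube array 2, while its change stayed between 2.59 and 2.89 in every omission. Of the groups with no call, 5 RALF-like peptides, 13 bZIP factors and 10 autophagy genes were tested, and with the block 2 bZIP factors passed upward and 1 downward, and 1 autophagy gene upward and 2 downward. Over all tested probe sets, 6.79% passed upward with the block and 7.63% downward. The 43 tested probe sets of plastid-encoded genes had a median change of 0.02 and no call.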

How the data were processed

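Transcripts were measured on single-colour ATH1 arrays, with 8 µg of total RNA and 20 µg of cRNA per sample per the labels' protocols. The deposited values are linear signal intensity, 1 per probe set and array, made with GCOS 1.0 and MAS5 per the submitters' processing notes. Each array has a common mean after trimming, so the values were used as scaled by the submitters. Detection calls were not used. Control probe sets (64 of 22810) were left out of the tests, and the single value under 0.1 was raised to 0.1 before taking log2. To enter, a probe set had to exceed the 60th percentile of the array on 2 or more of the 6 arrays.

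A limma 3.58.1 fit in R 4.3.3 had 1 mean per stage over 6 arrays (3 residual degrees of freedom, moderated variances with an intensity trend). The two-sided p-values were adjusted by Benjamini-Hochberg over 11412 probe sets. SEs and 95% intervals are from this fit, so they draw on the spread within all 3 stages and not within the compared stages alone. Where neither array of the dim stage exceeded its percentile, a fold is a bound ("at least"): the bright stage's mean over, per array, the higher of the percentile and the probe set's own value, as means of log2 values. The script was tested on simulated data. With 2 arrays a stage, their number limits the precision. The design text calls the replicates biological, but no origin is given, so p-values measure only the spread between these arrays, which may be partly technical.

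Whether arrays of a number share a batch is not given. Deviations from the stage means correlated between same-numbered arrays at 0.75 for hydrated and tube arrays, 0.66 for hydrated and mature and 0.64 for mature and tube arrays, over 2661 bright probe sets, and at 0.18, 0.17 and 0.22 over all tested. The comparison is therefore given within each number and with the number as a block, although 2 numbers are few and the pairing comes from the data.

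Probe sets were named from the platform annotation, with symbols updated from a TAIR10.1 gene table. Of the probe sets, 13513 had 1 gene, 503 several and 8730 were unnamed here, and 13436 of the single-gene ones matched the table. No build is named for the array, so no coordinates are given. The members and lists were chosen with earlier results of these data known. Genes named are the 15 largest rises and falls measured in both stages, the 8 largest bounds each way, the 8 brightest changes each way, the 10 brightest with an interval within 1 log2 unit of zero, the 5 most discordant between numbers, and members of lists and families. No named probe set carries a suffix for cross-hybridisation. The alternatives were fits without the trend, with the block, on 4 arrays, with other filters, scalings, floors and pseudocounts, and with each array left out.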

Additional observations from a re-analysis of the deposited data

How the results depend on the processing

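All 77 named genes that passed kept their direction under every alternative run, while 36 of the 68 named genes that did not pass changed sign under at least 1. The median change over all tested probe sets, -0.06, was 0.12 without tube array 2, and falls outnumbered rises there and in both fits with the block. Without the intensity trend in the limma fit, 0 probe sets passed the adjusted threshold (0 up, 0 down), while 1494 had an unadjusted p under 0.05, against 1720 with the trend. The replicate block gave 1646 changed (775 up, 871 down), and the block on the hydrated and tube arrays alone 2217 (1108 up, 1109 down). Scaling to a common 75th percentile gave 301 changed, 194 up and 107 down, and raising low values to the 60th percentile gave 870, 500 and 370. Leaving out 1 array in turn gave 109 to 636 changed, 63 to 361 up and 46 to 275 down. The cause of these differences was not tested. The unfiltered table (526), a 75th percentile filter (541), quantile normalization (480), a pseudocount of 16 (701) and the 4 arrays without the block (686) gave counts within 1.5 times the 522 reported. Of the 77 named genes that passed, 62 were called with the 75th percentile scaling, 67 with quantile normalization, 28 without tube array 1 and 35 without tube array 2, and 23 passed under every omission of 1 array. Probe sets near background limit what can be measured: their changes move with the floor, and a fold from background is only a bound.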
